A study of Mus musculus with 12 samples.

Results

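The genes described here are 10 that encode the NF-κB transcription factors and proteins that regulate them, out of 35275 genes listed in the count tables. They were taken by name: the subunit genes Rela, Rel, Relb, Nfkb1 and Nfkb2, the IκB genes Nfkbia and Nfkbie, the nuclear IκB genes Bcl3 and Nfkbiz, and Tnfaip3, which encodes A20. All 10 were found and all 10 passed the filter on low counts, as did 12849 genes in all. RNA had been sequenced from wildtype bone marrow derived macrophages of the mouse, grown from bone marrow cells with IL4, IL10 and MCSF, a mixture that drives them toward an M2 state. The cultures also received, for 6 days, the solvent DMSO, the PARP inhibitor olaparib or MNA, a methylated nicotinamide, and each of the 3 groups had 4 libraries. The study's legend gives 4 donor mice per experiment, with each group in quadruplicate, and the libraries of each group are numbered 1 to 4. Whether each library is a separate donor is not stated. The spread within a group may therefore be that between cultures rather than between animals. The cytokines were present in the controls too. The comparisons ask what olaparib and MNA each did to these genes, and whether the effects of the 2 treatments differed.

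NF-κB is a family of dimeric factors built from RelA, c-Rel, RelB, p50 and p52, where p50 and p52 are cut from the Nfkb1 and Nfkb2 products. In resting cells IκB proteins keep the dimers out of action, and receptors such as those for TNF, IL-1 and bacterial products switch on kinases that mark the IκB proteins for destruction. The freed dimers then induce cytokines, adhesion molecules and survival genes, and with them several of their own inhibitors. In macrophages this circuit is known for driving the inflammatory response, and transcripts alone do not report how much factor is in the nucleus.

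Because several of these genes are textbook targets of the factor they control, the sequence in front of them was searched for κB sites. RefSeq promoter windows, from 250 bases before to 50 bases after a transcript start on GRCm38.p6, were at hand for 7 of the 10 members, in 10 windows, and Relb, Nfkb1 and Nfkbiz had none. The 10-base κB consensus, searched on both strands, was found in 6 of these 7 genes, against 9.55% of the 27025 genes with a window, and Rela was the gene without it. The windows of 5 members on which the results below turn are printed 5′ to 3′ on the gene's own strand, with the bases of consensus matches in capitals. Matches on both strands that overlap were merged into 1 run. They are at chr11:23770920-23771219 on the minus strand for Rel, chr12:55492598-55492897 on the minus strand for Nfkbia, chr17:45555450-45555749 on the plus strand for Nfkbie, chr7:19822706-19823005 on the minus strand for Bcl3 and chr10:19015361-19015660 on the minus strand for the upstream of 2 Tnfaip3 windows.
Rel: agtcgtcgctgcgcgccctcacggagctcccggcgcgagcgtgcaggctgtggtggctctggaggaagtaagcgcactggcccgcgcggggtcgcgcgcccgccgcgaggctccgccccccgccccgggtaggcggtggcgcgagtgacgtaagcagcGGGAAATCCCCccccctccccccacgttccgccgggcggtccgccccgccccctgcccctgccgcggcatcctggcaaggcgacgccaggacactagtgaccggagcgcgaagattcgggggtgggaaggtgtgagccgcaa
Nfkbia: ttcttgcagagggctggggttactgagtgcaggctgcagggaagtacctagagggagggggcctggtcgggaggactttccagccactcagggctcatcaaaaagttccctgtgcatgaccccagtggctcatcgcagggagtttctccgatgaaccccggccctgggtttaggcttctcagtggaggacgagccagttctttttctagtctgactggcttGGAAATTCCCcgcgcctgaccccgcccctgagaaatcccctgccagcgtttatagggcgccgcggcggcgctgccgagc
Nfkbie: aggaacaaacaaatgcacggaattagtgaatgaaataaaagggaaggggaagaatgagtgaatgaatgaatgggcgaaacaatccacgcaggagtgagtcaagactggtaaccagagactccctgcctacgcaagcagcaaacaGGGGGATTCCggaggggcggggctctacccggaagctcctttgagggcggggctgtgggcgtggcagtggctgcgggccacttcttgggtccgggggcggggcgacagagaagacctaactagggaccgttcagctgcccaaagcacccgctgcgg
Bcl3: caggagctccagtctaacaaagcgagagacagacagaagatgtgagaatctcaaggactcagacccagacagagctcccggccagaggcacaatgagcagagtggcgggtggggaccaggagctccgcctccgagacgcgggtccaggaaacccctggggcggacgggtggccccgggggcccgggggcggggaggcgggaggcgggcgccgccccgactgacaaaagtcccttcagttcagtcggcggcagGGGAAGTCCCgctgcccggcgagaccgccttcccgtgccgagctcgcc
Tnfaip3: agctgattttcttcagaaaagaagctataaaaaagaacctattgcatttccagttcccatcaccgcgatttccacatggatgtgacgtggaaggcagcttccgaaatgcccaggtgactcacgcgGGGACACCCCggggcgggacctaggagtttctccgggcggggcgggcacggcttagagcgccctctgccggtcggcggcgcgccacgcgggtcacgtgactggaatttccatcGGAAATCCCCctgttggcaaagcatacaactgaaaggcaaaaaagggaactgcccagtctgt

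Counted from the start, with the first transcribed base as 1, the first base of the capitals lies at -92 in Rel, -29 in Nfkbia, -106 in Nfkbie and 3 in Bcl3. In Tnfaip3 there are 2 runs, at -125 and -12, and the second Tnfaip3 window held no match. A match is a description of these letters, and binding was not measured in these data.

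The deposited values are raw read counts per gene, with 21146291 to 31446849 counts per library. Levels are given here as CPM, the count of a gene scaled to a common library total after TMM normalisation, and a gene was called up or down at an adjusted p under 0.05 in edgeR. Values after ± beside a log2 fold change are standard errors. Of 8 macrophage markers, 8 had counts in every library, and Fcgr1 was the lowest of them. Their summed level was 3904 to 5049.9 CPM with DMSO, 8498 to 10219 with olaparib and 3628 to 7485 with MNA. Lyz2 was the largest part with olaparib, at 5114 to 6559 CPM against 1625 to 2532 with DMSO. Adgre1, Csf1r, Itgam and Mertk were also higher with olaparib than in every DMSO library. Cd68 was lower (813 to 869 CPM against 1095 to 1309), and Cd14 and Fcgr1 overlapped. Lists for 6 other kinds of cell summed to at most 53.2 CPM, and most of their genes were near 0. Exceptions were Zbtb46 of the dendritic cell list, above 10 CPM in every library and at 19.7 at most, and Gata2 of the mast cell and basophil list, at 4.49 to 9.86, which are levels like those of Bcl3. The T and NK cell list was higher with olaparib (11.8 to 20.1 CPM against 4.27 to 6.70 with DMSO), mostly through Klrb1c, while Cd3e, Cd3g and Trac stood at 0.906 CPM or less in every library. In MNA replicates 1, 3 and 4 the B cell list was at 14.3 to 23.1 CPM against 1.59 to 3.38 with DMSO. Ighm made up most of it, and Cd79b (2.10, 3.36 and 1.49 CPM against at most 0.506) and Ms4a1 were higher too. The dendritic cell list was at 20.6 to 34.8 CPM in these libraries against 17.9 to 21.5 with DMSO, and its genes moved in both directions. Ccr7 and Fscn1 of that list were higher in all 3 (Fscn1 at 7.81, 2.16 and 1.81 CPM against at most 0.190). Zbtb46 and Xcr1 of the same list were lower in all 3 than in every DMSO library (Xcr1 at 0.576, 0.926 and 0.804 CPM against at least 1.22). The neutrophil list reached 53.2 CPM in MNA replicate 4 against at most 8.39 with DMSO, and all 8 of its genes were above 0 there, with S100a9 at 20.8, S100a8 at 13.2, Ltf at 8.97 and Ly6g at 0.523 CPM. MNA replicate 2 stood apart from its group. The 5 markers of alternative activation summed to 31770 CPM in it and to 949 to 1410 in the other 3 MNA libraries, against 32900 to 53315 with DMSO and 18827 to 30354 with olaparib. Chil3 made up most of each sum, at 30405 to 50791 CPM with DMSO and 17069 to 27248 with olaparib. Arg1, Retnla, Mrc1 and Clec10a overlapped between olaparib and DMSO. In MNA replicates 1, 3 and 4 all 5 markers lay below every DMSO library. It was kept as labelled, and the main counts of calls are also given without it, since it widens the spread that all 3 groups share in the fit. The part of these markers in the results below was not tested. In bulk RNA, fewer cells of a type and less RNA per cell cannot be told apart.

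To compare levels between genes, CPM was divided by the kilobases of exon of each gene. That length counts the exonic bases of all annotated transcripts, 12061 for Nfkb1 and 3072 for Rela, and can exceed that of the mRNA made. The order and the shares below depend on this choice. In CPM alone Nfkb1 was the highest with DMSO, at a mean of 144.8 against 99.6 for Rela. In the DMSO cultures Rela and Nfkbia led, at 32.4 ± 1.30 and 30.4 ± 5.41 CPM per kb (mean ± SD, n = 4), and their ranges overlapped. Nfkb2 followed at 17.4 ± 0.904 and stood apart from both neighbours. Next came Nfkb1 at 12.01 ± 0.787 and Nfkbie at 11.1 ± 1.97, which overlapped with each other. Relb (7.68 ± 0.818 CPM per kb), Tnfaip3 (7.36 ± 0.542), Bcl3 (6.55 ± 1.01) and Rel (5.01 ± 0.511) formed a run in which each overlapped the next. Nfkbiz, at 0.391 ± 0.0594 CPM per kb, was the lowest by a wide gap, with 48 to 63 counts in a DMSO library. By this measure the order put an activating subunit and the main cytoplasmic inhibitor at a like level, and the 2 genes that feed the non-canonical arm, Nfkb2 and Relb, in the middle.

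**Figure D1:**
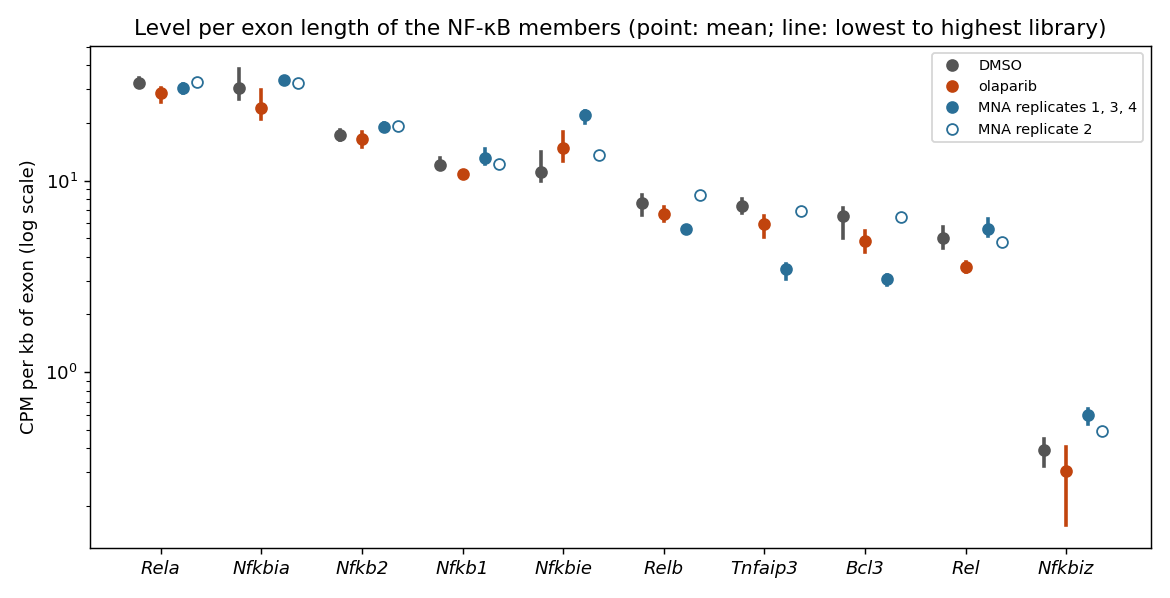
Level of each member in CPM per kb of exon (log axis), with genes in the order of their DMSO mean; points are group means, lines run from the lowest to the highest library, and the open point is MNA replicate 2. Rela and Nfkbia lead with DMSO at 32.4 and 30.4 CPM per kb, and Nfkbiz is lowest in every group.

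With olaparib the subunits and the other members were mostly at or below their DMSO level, by small amounts. The fit of 12 libraries called 2 of the 10 members down, Rel and Rela, and 0 up, where 12.8% of all tested genes were called down and 14.3% up. Without MNA replicate 2 the calls were 5 down and 1 up, at backgrounds of 21.2% and 22.5%. At an unadjusted p under 0.05 there was 1 member up in the fit of 12 libraries, Nfkbie, and DESeq2 also called 0 up. The median log2 fold change of the members was -0.25, beside 0.00 over all tested genes, and 1 of 10 was positive. For 4 members there was no overlap of olaparib with DMSO (Rela, Rel, Nfkb1 and Tnfaip3, all lower), while 41.0% of all tested genes did not overlap. Within same-numbered libraries, 9 members were lower in all 4 pairs and Nfkbie was higher in all 4, where 29.2% of all genes were lower and 29.9% higher in all 4. With the replicate number as a block the calls were 2 down (Rel and Nfkbia) and 1 up (Nfkbie), at backgrounds of 13.4% and 15.4%. Rela then missed the threshold, at an adjusted p of 0.0549. With the block and without MNA replicate 2, Relb and Nfkb1 joined the members called down, which made 7 down and 1 up, at backgrounds of 22.7% and 24.2%.

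With MNA the called members were Nfkbie, which rose, and Bcl3 and Tnfaip3, which fell, against background shares of 16.3% of genes called up and 12.3% called down. No subunit was called in the fit of 12 libraries by edgeR or by DESeq2, and the lowest unadjusted p among the 5 in edgeR was 0.0513, for Relb. The median log2 fold change of the members was 0.10, and 6 of 10 were positive. The levels of 1 member, Nfkbiz, did not overlap between the groups, and it was not called, where 12.4% of all genes did not overlap. Without MNA replicate 2 the calls were 1 up (Nfkbie) and 3 down (Bcl3, Tnfaip3 and Relb), at backgrounds of 27.2% and 26.9%. With the block, Nfkbiz was also called up in those libraries, at backgrounds of 27.8% up and 27.2% down. The number of members without overlap was 5 without MNA replicate 2, at a background of 54.2%. All 3 calls were lost when DMSO and MNA were fitted in edgeR without the olaparib libraries, where 4 members had an unadjusted p under 0.05. The share of all genes called in that fit is not given.

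The direct test of olaparib against MNA asks whether the treatments differed, and both are set against the same DMSO libraries. Olaparib was lower for 5 members, Rel, Nfkb1, Nfkb2, Nfkbia and Nfkbiz, and higher for 0, where 10.9% of genes were called down and 10.9% up. At an unadjusted p under 0.05 there was 1 higher member, Tnfaip3, and DESeq2 called 0 higher. The same 5 did not overlap between the groups, at a background of 21.2%. Without MNA replicate 2 all members but Rela were called. Nfkbie joined the 5 as lower with olaparib, and Relb, Bcl3 and Tnfaip3 were higher, at backgrounds of 20.7% down and 21.5% up. With the block and without MNA replicate 2 there were also 9 members called, at backgrounds of 21.4% down and 22.7% up. The libraries did not overlap for 9 members without MNA replicate 2, at a background of 46.2%. Rela was not called, with a 95% interval of -0.26 to 0.02 for the log2 difference in the fit of 12 libraries.

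**Figure D2:**
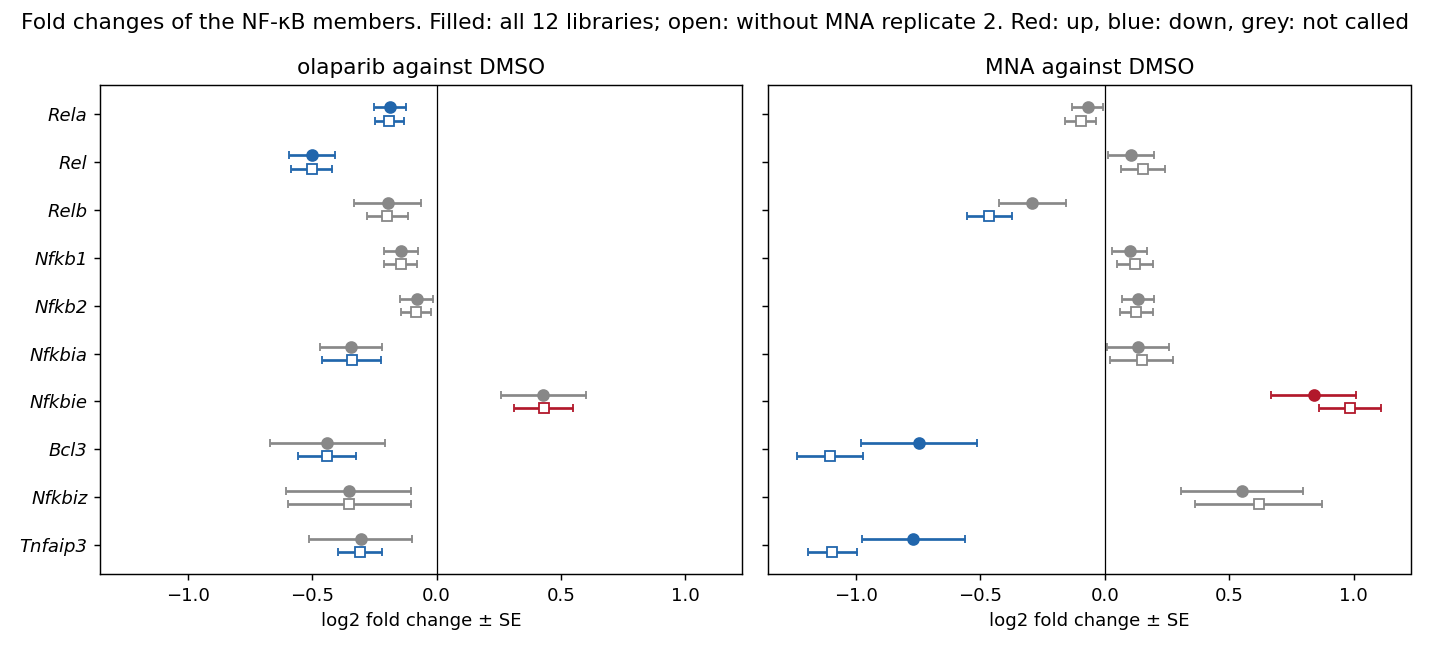
Log2 fold change of each member against DMSO (bars: standard error) for olaparib and MNA, in the fit of 12 libraries (filled) and without MNA replicate 2 (open), coloured by the call. Rel and Rela are the 2 called down with olaparib in the fit of 12 libraries, and Nfkbie, Bcl3 and Tnfaip3 the 3 called with MNA. Neither fit has the replicate block. With it, Rel and Nfkbia are called down and Nfkbie up for olaparib over the 12 libraries.

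Among the subunits, Rel was the one that moved most with olaparib. It encodes c-Rel, the subunit known for inducing IL-12 family cytokines in myeloid cells (ENSMUSG00000020275, chromosome 11, 23736847 to 23770970, minus strand). Its level was 37.5, 33.3, 42.5 and 36.4 CPM in DMSO replicates 1 to 4 and 27.9, 26.2, 26.8 and 24.98 with olaparib. In MNA replicates 1, 3 and 4 it was 47.01, 38.2 and 39.97, and in MNA replicate 2 it was 35.8. Every olaparib library was thus below every DMSO and every MNA library. The log2 fold change with olaparib was -0.50 ± 0.09 (adjusted p = 0.00342), and against MNA it was -0.61 ± 0.09 (adjusted p = 0.00107). With MNA Rel was not called, at 0.11 ± 0.09 (adjusted p = 0.398) and a 95% interval of -0.10 to 0.31. The olaparib call and the difference from MNA held in 20 of 20 alternative fits, those without each library among them, and were lost where a change of at least 2-fold was asked for.

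Rela encodes RelA (p65), the main activating subunit of the canonical pathway (ENSMUSG00000024927, chromosome 19, 5637483 to 5648130, plus strand). It stood at 97.7, 96.4, 98.9 and 105 CPM in the DMSO libraries and at 87.6, 89.98, 93.1 and 79.4 with olaparib, with no overlap. MNA replicates 1, 3 and 4 had 93.5, 97.95 and 88.4 CPM and MNA replicate 2 had 100.1, which overlapped with DMSO. The olaparib difference was -0.19 ± 0.06 (adjusted p = 0.0447), close to the threshold, and the call held in 9 of 20 alternative fits. With MNA the value was -0.07 ± 0.06 (adjusted p = 0.412), with a 95% interval of -0.21 to 0.07.

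Relb encodes the partner of p52 in the non-canonical pathway (ENSMUSG00000002983, chromosome 7, 19606217 to 19629438, minus strand). With DMSO it was at 31.7, 29.4, 32.6 and 25.5 CPM and with olaparib at 28.3, 25.03, 26.7 and 23.97, which overlapped. In MNA replicates 1, 3 and 4 the levels of 21.3, 22.5 and 21.1 CPM lay below all DMSO and all olaparib libraries, while MNA replicate 2, at 32.5, lay among the DMSO libraries. Relb was not called with MNA in the fit of 12 libraries, at -0.29 ± 0.13 (adjusted p = 0.114), and was called down without MNA replicate 2, at -0.46 ± 0.09 (adjusted p = 6.05e-04). With olaparib it was not called in either fit, and its value was -0.20 ± 0.13 (adjusted p = 0.291). It was called with the block and without MNA replicate 2, at -0.20 ± 0.07 (adjusted p = 0.0295).

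Nfkb1, the gene of p105 and p50 (ENSMUSG00000028163, chromosome 3, 135584655 to 135691547, minus strand), was the highest member in CPM. Its libraries held 159, 141, 139.9 and 139.9 CPM with DMSO, 136, 128, 134 and 126 with olaparib and 175, 148 and 151 in MNA replicates 1, 3 and 4, with 148 in MNA replicate 2. The libraries numbered 1 were the highest of their group in all 3 groups. All olaparib libraries lay below all DMSO libraries, but the change of -0.14 ± 0.07 (adjusted p = 0.141) was not called. With the block and without MNA replicate 2 it was called, at -0.14 ± 0.05 (adjusted p = 0.0328). Against MNA olaparib was lower, at -0.24 ± 0.07 (adjusted p = 0.0268), and 14 of 20 alternative fits kept that call.

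Nfkb2, the gene of p100 and p52 (ENSMUSG00000025225, chromosome 19, 46304320 to 46312385, plus strand), had 84.4, 79.7, 79.9 and 74.2 CPM with DMSO and 82.2, 73.01, 76.98 and 68.8 with olaparib. The MNA libraries 1, 3 and 4 had 83.9, 91.9 and 85.02 CPM and MNA replicate 2 had 88.2, so this is 1 of 2 members for which that library lay within the range of the other MNA libraries. Neither treatment was called against DMSO, with 95% intervals of -0.22 to 0.06 for olaparib and -0.01 to 0.27 for MNA. The olaparib libraries lay below the MNA libraries without overlap, at -0.21 ± 0.06 (adjusted p = 0.0350), and 13 of 20 alternative fits kept the call. Of its 31-base words, 16.3% also occur in another gene, mostly AC114539.1, and 299 exonic bases lie opposite Psd, which had 115 to 235 counts in a library against at least 1800 for Nfkb2.

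Summed per kb of exon, the 5 subunit genes came to 74.5 ± 1.85 CPM per kb with DMSO, 66.0 ± 3.72 with olaparib and 73.6 ± 2.59 in MNA replicates 1, 3 and 4 (mean ± SD). Within that sum Rela held 43.6 ± 2.19% with DMSO and 43.1 ± 1.42% with olaparib, which overlapped. Rel went from 6.72 ± 0.591% with DMSO to 5.37 ± 0.124% with olaparib, with ranges of 6.16 to 7.56 and 5.22 to 5.50. Relb made up 10.3 ± 0.957% with DMSO and 7.57 ± 0.228% in MNA replicates 1, 3 and 4, and 10.8% in MNA replicate 2. These shares are descriptions and were not tested.

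**Figure D3:**
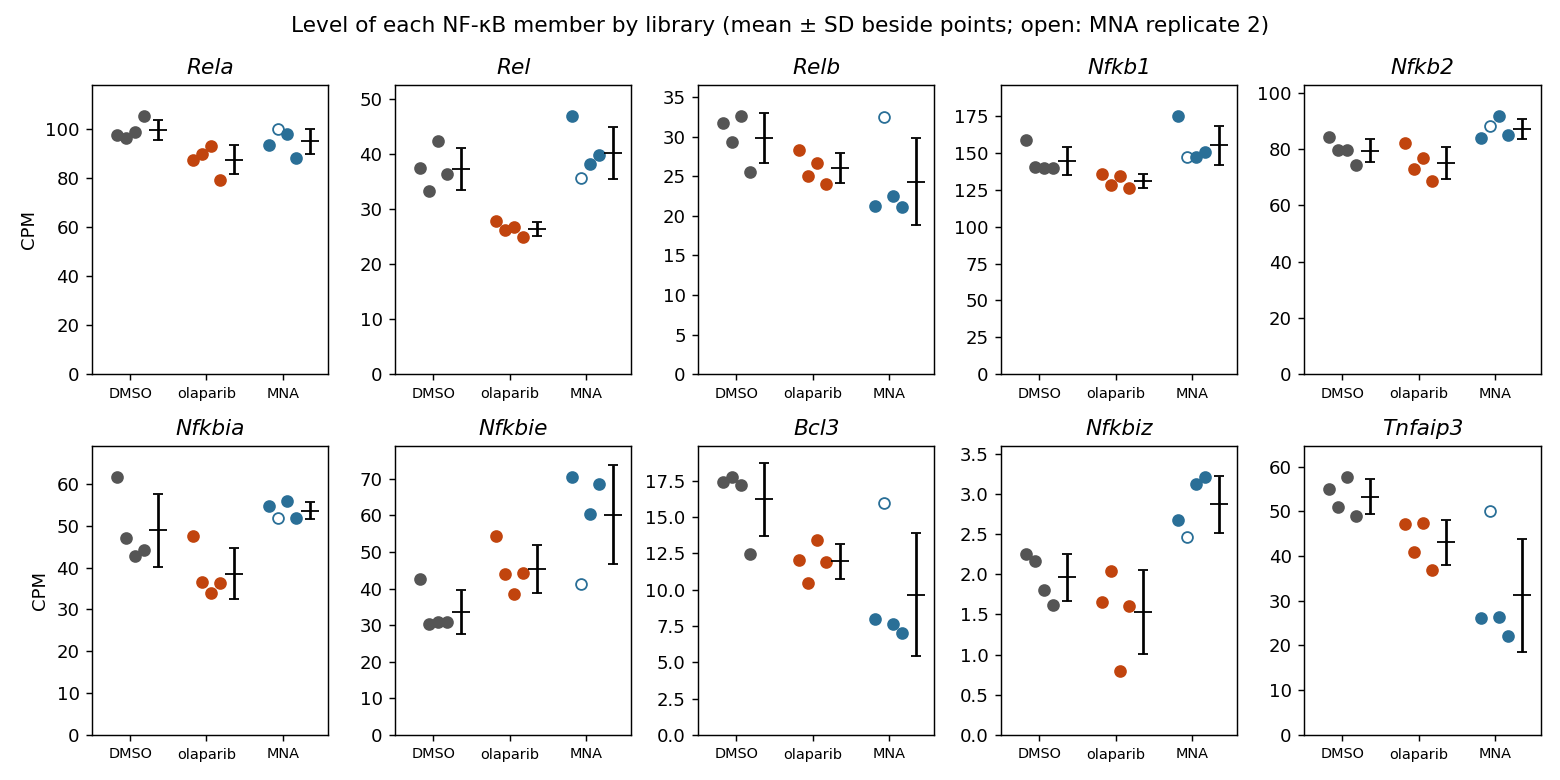
CPM of each member in every library, with the group mean ± SD (n = 4) to the right of the points and MNA replicate 2 as an open point; each panel starts at 0. The olaparib points of Rel (24.98 to 27.9 CPM) lie below all others, and in Relb, Bcl3 and Tnfaip3 the open MNA point lies among the DMSO points while the other 3 lie below them.

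The 2 IκB genes differed in sign with olaparib, and neither was called in the fit of 12 libraries without a block. Nfkbia encodes IκBα, the inhibitor that NF-κB itself induces as rapid negative feedback (ENSMUSG00000021025, chromosome 12, 55489410 to 55492647, minus strand). It had 61.7, 47.03, 42.9 and 44.1 CPM with DMSO and 47.5, 36.5, 33.8 and 36.3 with olaparib. The groups overlapped, and the library numbered 1 was the highest in both. The log2 difference within the same number was -0.38, -0.37, -0.34 and -0.28 for numbers 1 to 4. In the fit of 12 libraries without the block it was -0.34 ± 0.13 (adjusted p = 0.0597), not called. It was called with the block, at -0.34 ± 0.09 (adjusted p = 0.0199), and without MNA replicate 2, at -0.34 ± 0.12 (adjusted p = 0.0313). MNA replicates 1, 3 and 4 had 54.8, 55.9 and 51.8 CPM and MNA replicate 2 had 51.8, within the DMSO range. MNA was not called, with a 95% interval of -0.14 to 0.40, and the olaparib level was below that of MNA, at -0.48 ± 0.13 (adjusted p = 0.0188).

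Nfkbie encodes IκBε, a slower inhibitor that acts on RelA and c-Rel dimers (ENSMUSG00000023947, chromosome 17, 45555703 to 45563169, plus strand), and it was the 1 member that was higher in every numbered pair with both treatments. The DMSO libraries had 42.7, 30.3, 30.8 and 30.9 CPM, the olaparib libraries 54.4, 43.9, 38.5 and 44.3 and MNA replicates 1, 3 and 4 70.6, 60.5 and 68.6, while MNA replicate 2 had 41.2. DMSO replicate 1 was the highest of its group and overlapped with the olaparib libraries and with MNA replicate 2. Within numbers the olaparib differences were 0.35, 0.53, 0.33 and 0.52, and those of MNA were 0.73, 0.44, 0.98 and 1.15. With MNA Nfkbie rose, at 0.84 ± 0.17 (adjusted p = 0.0142), and 19 of 20 alternative fits kept the call. With olaparib the value was 0.43 ± 0.17 (adjusted p = 0.0804), not called. It was called with the block (adjusted p = 0.0257) and without MNA replicate 2 (adjusted p = 0.00949). Olaparib and MNA did not differ by the threshold in the fit of 12 libraries, with an interval of -0.78 to -0.04, and olaparib was lower without MNA replicate 2, at -0.55 ± 0.13 (adjusted p = 0.00277).

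Bcl3 encodes a nuclear IκB protein that works with p50 and p52 homodimers at promoters (ENSMUSG00000053175, chromosome 7, 19808462 to 19822770, minus strand). Its level was 17.4, 17.8, 17.2 and 12.5 CPM with DMSO, 12.05, 10.5, 13.4 and 11.9 with olaparib and 7.98, 7.64 and 7.04 in MNA replicates 1, 3 and 4, with 15.97 in MNA replicate 2. DMSO replicate 4 was the lowest of its group and overlapped with olaparib. MNA replicates 1, 3 and 4 lay below every other library. With MNA Bcl3 fell by 0.74 ± 0.23 on the log2 scale (adjusted p = 0.0351), and without MNA replicate 2 by 1.10 ± 0.13 (adjusted p = 1.00e-05). In 13 of 20 alternative fits the MNA call held. With olaparib it was -0.44 ± 0.23 (adjusted p = 0.171), not called, and called without MNA replicate 2 (adjusted p = 0.00765). The 2 genes opposite Bcl3, Gm16175 and Gm16174, had at most 6 counts in a library.

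Nfkbiz encodes IκBζ, the nuclear protein that licenses secondary response genes such as Il6 (ENSMUSG00000035356, chromosome 16, 55811375 to 55838899, minus strand). At 2.25, 2.17, 1.81 and 1.62 CPM with DMSO, 1.66, 2.04, 0.799 and 1.60 with olaparib, 2.67, 3.13 and 3.22 in MNA replicates 1, 3 and 4 and 2.47 in MNA replicate 2, it was the least expressed member. All 4 MNA libraries, replicate 2 included, lay above all DMSO libraries. That difference of 0.55 ± 0.24 (adjusted p = 0.101) was not called. With the block and without MNA replicate 2 it was called, at 0.73 ± 0.25 (adjusted p = 0.0252). The olaparib libraries overlapped with DMSO and lay below all MNA libraries, and the difference between the treatments was -0.91 ± 0.25 (adjusted p = 0.0224). A library of 19 to 81 counts carries a counting error of 11.1% to 22.9%, which limits what could be detected for this gene.

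Tnfaip3 encodes A20, a ubiquitin editing enzyme that shuts off signalling to the IκB kinases (ENSMUSG00000019850, chromosome 10, 19000910 to 19015657, minus strand). It stood at 54.99, 51.02, 57.7 and 49.01 CPM with DMSO and 47.1, 40.98, 47.3 and 36.8 with olaparib, without overlap. In MNA replicates 1, 3 and 4 it was 26.2, 26.4 and 22.2 CPM, below every other library, and in MNA replicate 2 it was 49.96, within the DMSO range. With MNA it fell by 0.77 ± 0.21 on the log2 scale (adjusted p = 0.0232) over all libraries and by 1.09 ± 0.10 (adjusted p = 7.02e-07) without MNA replicate 2. The MNA call held in 14 of 20 alternative fits. With olaparib the change of -0.31 ± 0.21 (adjusted p = 0.282) was not called, and it was called without MNA replicate 2 (adjusted p = 0.0117). The treatments differed by 0.79 ± 0.10 (adjusted p = 2.69e-05) without MNA replicate 2. With it the difference was 0.46 ± 0.21 (adjusted p = 0.131), not called.

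The makeup of the 5 members that are not subunits, again per kb of exon, differed between the groups. Nfkbie held 19.8 ± 1.03% of their sum with DMSO, 29.8 ± 1.42% with olaparib and 34.9 ± 2.51% in MNA replicates 1, 3 and 4, and 22.7% in MNA replicate 2. Nfkbia held 54.3 ± 2.37% with DMSO, 47.8 ± 1.67% with olaparib and 53.8 ± 1.99% in MNA replicates 1, 3 and 4. Bcl3 and Tnfaip3 went from 11.8 ± 1.77% and 13.4 ± 1.68% with DMSO to 4.87 ± 0.200% and 5.51 ± 0.460% in those MNA libraries. With olaparib the larger Nfkbie share stood beside a smaller Nfkbia share, and with MNA beside smaller Bcl3 and Tnfaip3 shares. The sum of these 5 was 55.8 ± 7.99 CPM per kb with DMSO and 49.9 ± 6.18 with olaparib, which overlapped. In MNA replicates 1, 3 and 4 the sum was 62.6 ± 1.75, and in MNA replicate 2 it was 59.6, all within the DMSO range. These shares too are descriptions.

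MNA replicate 2 lay inside the DMSO range for 8 of the 10 members, all but Nfkb2 and Nfkbiz, and inside the range of MNA replicates 1, 3 and 4 for 2, Nfkb1 and Nfkb2. In 7 members its level was nearer to the DMSO mean than to the mean of the other MNA libraries.

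**Figure D4:**
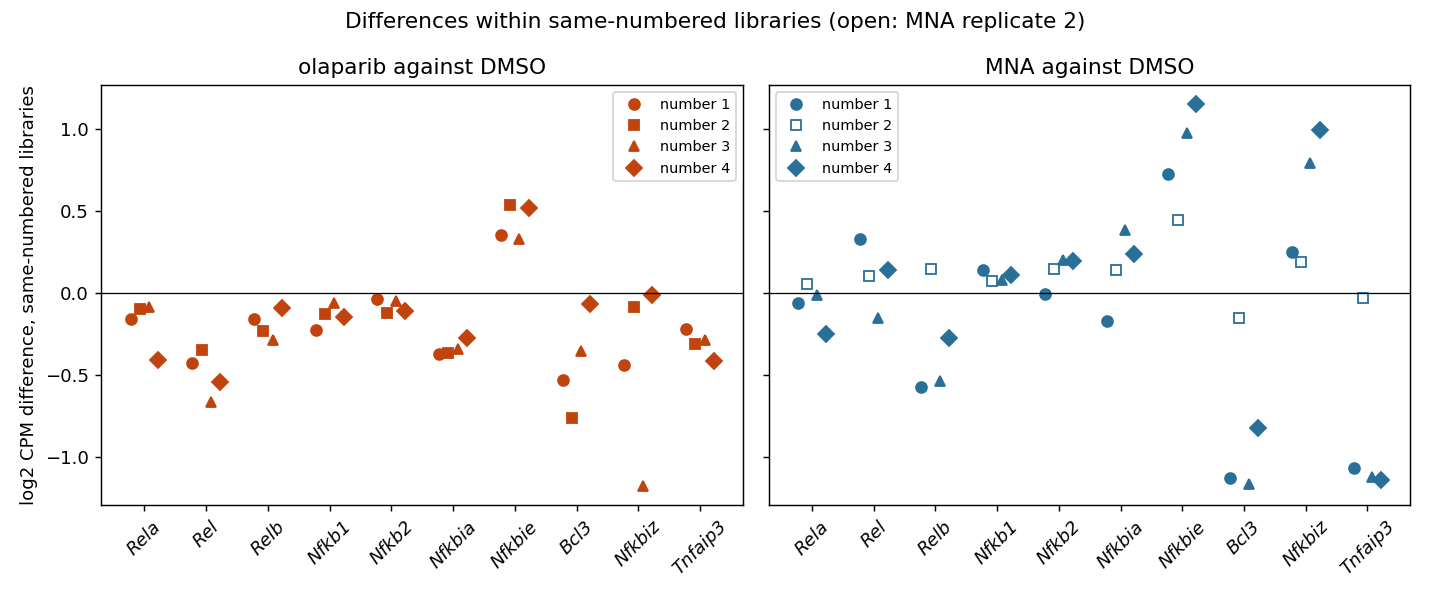
Log2 CPM difference between same-numbered libraries for each member, olaparib against DMSO on the left and MNA against DMSO on the right, with 1 point per number and MNA replicate 2 open. On the left 9 members lie below 0 in all 4 numbers and Nfkbie above it, and on the right the open points of Bcl3 and Tnfaip3 lie near 0, apart from the other 3.

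Of 48 genes upstream of these factors (receptors, adaptors, kinases and other regulators), all 48 were tested. With olaparib 11 rose and 5 fell, beside 14.3% and 12.8% of all genes. Without MNA replicate 2, 15 rose and 6 fell, beside 22.5% and 21.2% of all genes. The values that follow are from the fit of 12 libraries. Their median log2 fold change was 0.09. Tnfrsf1b, the second TNF receptor, was at 237, 185, 234 and 208 CPM with DMSO and 504, 556, 667 and 563 with olaparib, a change of 1.41 ± 0.25 (adjusted p = 0.00268). Tlr2, a receptor for bacterial lipoproteins, rose by 1.55 ± 0.40 (adjusted p = 0.0146), from 2.30, 1.89, 2.41 and 1.75 to 6.99, 4.99, 6.27 and 6.20 CPM. The receptors were the group with most calls, 5 up and 1 down of 9. Tnfrsf11a, the RANK receptor, rose by 0.82 ± 0.18 (adjusted p = 0.00648), and Nfkbid, a nuclear IκB gene outside the 10, by 0.97 ± 0.28 (adjusted p = 0.0230). Among those that fell, Cd40, a TNF receptor family member, had -0.81 ± 0.19 (adjusted p = 0.0107), and Nfkbib, the gene of IκBβ, -0.34 ± 0.09 (adjusted p = 0.0175). Tab2 and Traf3, an adaptor of the TAK1 kinase and a brake on the non-canonical pathway, also fell, by 0.37 and 0.28 on the log2 scale (adjusted p = 0.00439 and 0.0313).

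With MNA 16 upstream genes rose and 3 fell in the fit of 12 libraries, and 25 rose and 7 fell without MNA replicate 2. Of all genes 16.3% rose and 12.3% fell, and without MNA replicate 2 27.2% and 26.9%. Tnfrsf1b had 565, 580.2 and 530.2 CPM in MNA replicates 1, 3 and 4 and 209 in MNA replicate 2, and its change was 1.13 ± 0.25 (adjusted p = 0.0154). Tlr2 rose by 2.01 ± 0.40 (adjusted p = 0.0142) and Tlr9, a sensor of bacterial DNA, by 2.66 ± 0.63 (adjusted p = 0.0173), from 0.656, 0.895, 0.771 and 0.889 CPM with DMSO to 9.29, 5.83 and 4.79 in MNA replicates 1, 3 and 4. In MNA replicate 2 Tlr2 was at 2.18 and Tlr9 at 0.609 CPM, close to the DMSO libraries. Nfkbid rose by 1.18 ± 0.28 (adjusted p = 0.0170). The 3 that fell were Tank, which binds TRAF proteins and restrains the pathway (-0.30 ± 0.10, adjusted p = 0.0435), Nfkbib (-0.26 ± 0.09, adjusted p = 0.0471) and Traf3 (-0.25 ± 0.08, adjusted p = 0.0467). Without MNA replicate 2, Cd40 (-0.71 ± 0.17, adjusted p = 0.00259) and Ikbkg, the regulatory subunit of the IκB kinase (-0.36 ± 0.07, adjusted p = 6.60e-04), were also called down. Nfkbib shares 14% of its 31-base words with another gene, mostly Ccer2.

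The direction of the target genes differed from gene to gene. Of 44 listed targets, 38 were tested, and 8 rose and 3 fell with olaparib, with a median log2 fold change of 0.33. Over all genes the shares were 14.3% and 12.8%. Without MNA replicate 2, 17 of 39 tested targets rose and 7 fell, beside 22.5% and 21.2% of all genes. Icam1, an adhesion molecule, was at 19.7, 21.3, 16.5 and 21.2 CPM with DMSO and 68.9, 70.3, 58.3 and 74.6 with olaparib (1.79 ± 0.29, adjusted p = 0.00148). Nos2, which makes nitric oxide, stood at 12.6, 19.5, 22.7 and 20.7 CPM with DMSO and 30.6, 44.2, 91.7 and 70.02 with olaparib (1.64 ± 0.32, adjusted p = 0.00393). For both genes the groups did not overlap, and Icam1 shares 14.8% of its 31-base words with another gene, mostly Gm47079. Cd80, a costimulatory ligand, rose by 0.70 ± 0.17 (adjusted p = 0.0121), and Traf1, an adaptor of TNF receptors, by 0.58 ± 0.18 (adjusted p = 0.0327). Gadd45b, a stress response gene, fell from 40.7, 48.1, 59.04 and 44.03 to 15.2, 14.1, 17.5 and 13.6 CPM (-1.67 ± 0.30, adjusted p = 0.00276). Ccrl2, a chemerin binding receptor, fell by 0.98 and Tnfaip2, a gene induced by TNF, by 0.37 (adjusted p = 0.0197 and 0.0167).

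With MNA 12 of the 38 targets rose and 4 fell, and without MNA replicate 2 these were 17 and 9 of 39. The shares of all genes were 16.3% and 12.3%, and 27.2% and 26.9% without it. Ccl3, a chemokine gene, was at 9.94, 5.33, 4.59 and 5.21 CPM with DMSO, at 49.7, 50.4 and 48.7 in MNA replicates 1, 3 and 4 and at 6.48 in MNA replicate 2. Ccl4, another chemokine gene, was at 4.45, 2.06, 1.57 and 1.30 CPM with DMSO, at 18.8, 19.5 and 18.6 in MNA replicates 1, 3 and 4 and at 1.61 in MNA replicate 2. For both genes the 3 MNA libraries lay above all DMSO libraries, and MNA replicate 2 lay among the latter. Their changes over all libraries were 2.64 ± 0.50 (adjusted p = 0.0142) and 2.66 ± 0.61 (adjusted p = 0.0165). Ccr7, a homing receptor that is also on the dendritic cell list, rose by 4.55 ± 0.82 (adjusted p = 0.0142) from at most 0.381 CPM with DMSO, and Irf1, an interferon regulatory factor, by 1.99 ± 0.41 (adjusted p = 0.0142). Nos2 fell with MNA, at -1.08 ± 0.33 (adjusted p = 0.0309), and had 8.47, 6.56 and 7.80 CPM in MNA replicates 1, 3 and 4. Gadd45b (-0.93 ± 0.29, adjusted p = 0.0358) and Ccrl2 (-0.81 ± 0.27, adjusted p = 0.0419) fell too. Saa3, an acute phase gene, was called down without MNA replicate 2 (-2.89 ± 0.38, adjusted p = 2.46e-05).

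In the direct test of olaparib against MNA, 4 upstream genes were higher and 8 lower with olaparib, and of the targets 6 were higher and 10 lower. Without MNA replicate 2 the counts were 5 and 22 upstream genes and 10 and 15 targets. Of all genes 10.9% were higher and 10.9% lower, and 21.5% and 20.7% without MNA replicate 2. The median log2 difference was -0.10 for the upstream genes and -0.13 for the targets, beside -0.23 for the 10 members and -0.01 over all tested genes. With olaparib the median of the members (-0.25) was below 0 and that of the targets (0.33) above it. With MNA all 3 medians were above 0, at 0.10, 0.16 and 0.18 for members, upstream genes and targets.

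**Figure D5:**
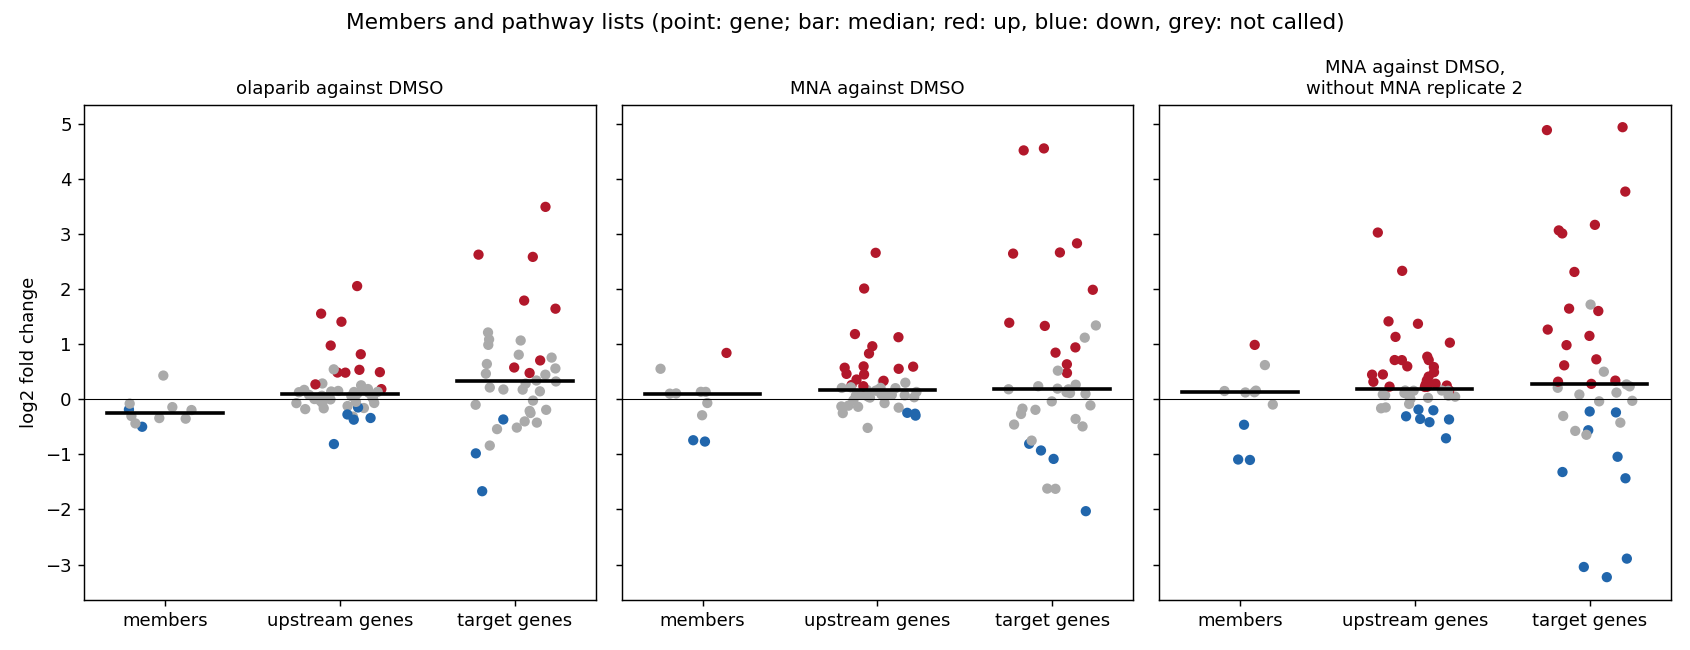
Log2 fold change against DMSO of the 10 members, the 48 upstream genes and the 38 or 39 tested target genes, for olaparib, for MNA and for MNA without replicate 2; each point is a gene, the bar is the median, and colours give the calls. The members stay within -1.10 and 0.99, while single targets reach log2 fold changes above 4 with MNA.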

How the data were processed

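The authors prepared stranded mRNA libraries, aligned the reads with STAR 2.5.2b (per the labels, which also name R 3.6.0) to GRCm38, and deposited raw read counts per Ensembl gene for each of the 12 libraries. Which of STAR's strand columns was deposited is not given in the sources used here, so reads of genes on opposite strands may not be separable. No column of another sample was used.

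Of the 35275 listed IDs, 34490 were named from GENCODE (GRCm38), which also gave positions and exon lengths, and promoter windows from RefSeq (GRCm38.p6). Of the 10 printed or searched windows, the first 31 bases after the start lay in a GENCODE transcript of the same gene in 8. The filter on low counts was filterByExpr with a minimum count of 10 and a minimum total of 15. The test was the quasi-likelihood F test of edgeR 4.0.16 (R 4.3.3, TMM) in 1 fit of the 12 libraries, with Benjamini-Hochberg adjustment over all 12849 tested genes. Standard errors of log2 fold changes were derived from F values and 95% intervals from the total (residual plus prior) degrees of freedom of the test.

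The members and the lists were chosen with earlier results of these data known. Named are all 10 members and, of each list and contrast against DMSO, the called genes with the 4 largest and 4 smallest log2 fold changes, if a group's mean reached 100 counts. Alternatives were DESeq2 1.42.0, RLE and upper quartile normalization, no count filter, a minimum mean of 50 counts, a replicate block, separate fits for each pair of groups, calls at 0.01 or with a 2-fold minimum, and each library left out in turn.

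The study's legend gives 4 donor mice per experiment, with each group in quadruplicate. The study does not say that a number stands for a donor. Deviations of same-numbered libraries from their group means had r across genes of 0.227, 0.172, 0.225 and 0.408 for olaparib and DMSO. Each olaparib library matched the DMSO library of its own number best, which goes with a pairing by number. The main fit leaves such a pairing out, so its olaparib calls are to be read beside those with the block. For MNA and DMSO r was 0.242, 0.114, -0.01 and 0.277. With numbers 1, 3 and 4 alone r was 0.175, 0.175 and 0.329 for MNA and DMSO and 0.205, 0.183 and 0.363 for olaparib and MNA. These values were not set against those of libraries with different numbers, so they do not settle whether the numbers pair these libraries. On simulated counts of 12695 genes with the olaparib and DMSO libraries, edgeR recovered 19 of 100 genes changed by 0.5 and 70 of 100 changed by 1 on the log2 scale, and called 1 unchanged gene.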

Additional observations from a re-analysis of the deposited data

Results flagged for a closer look

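In 7 of 30 gene and group combinations 1 library lay far from the other 3, with a gap past Dixon's 95% critical value for 4 libraries, as a share of the group's range. Chance alone marks about 1 in 20 such groups. Of the 7, MNA replicate 2 gave 3 as the highest of its group: Relb at 32.5 CPM (gap 0.875 of the range), Bcl3 at 16.0 CPM (0.895) and Tnfaip3 at 49.96 CPM (0.846). For these genes the other MNA libraries lay below every DMSO library. DMSO replicate 1 gave 2, as the highest for Nfkb1 at 159 CPM (0.966) and for Nfkbie at 42.7 CPM (0.953). MNA replicate 1 was the highest for Nfkb1 at 175 CPM (0.890), and for Nfkb1 and Nfkbie the library numbered 1 was the highest in all 3 groups. DMSO replicate 4 was the lowest for Bcl3 at 12.5 CPM (0.887).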

How the results depend on the processing

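No member changed direction in any alternative fit. Rel kept its call with olaparib against DMSO and against MNA in 20 of 20 alternative fits and at a threshold of 0.01, but not with a minimum change of 2-fold, with log2 fold changes of -0.55 to -0.43 and -0.66 to -0.52.

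Counts of calls are given for members, upstream genes and targets in that order. Shares of all genes called are given above for the fit of 12 libraries and without MNA replicate 2. They are also given with the block and without MNA replicate 2, and for the block alone for olaparib against DMSO. For the other settings no such share is given. A change in their counts therefore cannot be told from a change over all genes. Olaparib against DMSO gave 2, 16 and 11, MNA against DMSO 3, 19 and 16, and olaparib against MNA 5, 12 and 16. With 1 library left out the ranges were 1 to 6, 8 to 21 and 8 to 24 for olaparib against DMSO, 1 to 4, 2 to 32 and 7 to 26 for MNA against DMSO, and 2 to 9, 5 to 27 and 13 to 25 for olaparib against MNA. The highest counts were those without MNA replicate 2. The lowest for members against MNA (2) came without olaparib replicates 2, 3 or 4 or MNA replicate 3, and the lowest with MNA (1) without DMSO replicates 2 or 3 or MNA replicates 1, 3 or 4.

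The replicate block alone gave 3, 17 and 14 calls for olaparib against DMSO, 3, 18 and 21 for MNA against DMSO, and 6, 10 and 20 for olaparib against MNA. With all 4 numbers 1 correlation was below 0.1 in either comparison with MNA, and with numbers 1, 3 and 4 alone every one was above it. Of the 4 numbers, 2 gave the best match for MNA and DMSO and 3 for olaparib and MNA. Among the members the block changed the calls of Rela, Nfkbia and Nfkbie for olaparib against DMSO and of Nfkbie for olaparib against MNA, and no other. Without MNA replicate 2 the block added Relb and Nfkb1 for olaparib against DMSO and Nfkbiz for MNA against DMSO, and changed no other. The block together with leaving out MNA replicate 2 gave 8, 22 and 28 for olaparib against DMSO, 5, 32 and 29 for MNA against DMSO, and 9, 27 and 30 for olaparib against MNA. Fits of the 2 groups alone gave 5, 22 and 22, then 0, 0 and 0, and then 2, 5 and 15. DESeq2 gave 3, 17 and 14, then 3, 22 and 20, and then 5, 13 and 21. A threshold of 0.01 left 1, 5 and 6, then 0, 0 and 0, and then 1, 3 and 8. A change of at least 2-fold left 0, 3 and 6, then 0, 4 and 10, and then 0, 0 and 11. Without the filter on low counts 1 member was called for olaparib against DMSO, and 3 members and 6 upstream genes against MNA. Upper quartile normalization and a mean of at least 50 counts each left 1 member called for olaparib against DMSO. The cause of these moves was not tested, beyond the shared spread, which fell from a common dispersion of 0.0333 to 0.0123 without MNA replicate 2. Other scalings moved the median of all genes by under 0.03 (log2).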
